A study of Mus musculus with 24 samples.

Results

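Mouse embryonic stem cells in which CTCF carried an auxin-inducible degron were taken through neural progenitor differentiation, and the cells described here had auxin washed out on day 4 and were harvested 2 days later. They were set against cells harvested on day 4 with auxin still present. These 4 libraries, 2 per group, were chosen by their labels from 24 in the series. The cells were of the F123 line, a hybrid mouse embryonic stem cell line, and every group carried the CTCF-AID allele, controls included. The day 4 washout group had therefore passed through 4 days of differentiation with auxin and 2 days without it. The day 4 auxin group had the same 4 days with auxin, added to each ml of medium as 1 µl at 500 mM. Day 6 auxin cells had auxin kept for all 6 days, and day 6 control and day 4 control cells had none, with 2 libraries in each of these groups as well. Cells without the degron that were given auxin were not analysed here, and the labels do not say whether the 2 libraries of a group came from separate cultures or clones, so the spread between them may be technical.

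CTCF is a zinc finger protein that binds DNA at very many sites and halts the cohesin ring as it extrudes chromatin loops. Its sites at domain borders and near promoters shape which enhancers meet which genes, and the clustered protocadherins and the imprinted Igf2 and H19 genes are textbook examples. A degron is a short tag that is ubiquitinated when auxin is present, so the tagged protein is destroyed within hours and can return once auxin is removed. The mRNA of the tagged gene does not report the level of the protein. The plain comparison of washout with day 4 auxin joins auxin removal with 2 more days of culture, and the 2 cannot be told apart in it. Other groups are therefore given beside it: day 6 control over day 4 control is the change of untreated cells over a like interval, and day 6 auxin cells show the same interval with auxin kept.

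The 16 differentiation libraries held 51053184 to 72048935 counts, with 51957012 and 56657334 in day 4 washout and 55653906 and 66491850 in day 4 auxin. Values below are CPM, read counts scaled to a fixed library size after TMM normalization, given as replicate 1 and replicate 2. They are not divided by gene length, so levels are compared between samples and not between genes. The 4 washout libraries of the series stood apart in ways that no other group shared. Among counts of 1 to 20, 59.6% to 60.5% of values were even in the washout libraries, against 65.9% to 72.2% in the other 12 differentiation libraries. A set of 146 genes that were flat in those 12 libraries lay at least 2-fold outside their range in both day 6 washout libraries, 101 above it and 45 below. Of these, 91 were shifted the same way in day 4 washout, and 58 were processed pseudogenes. Among all 22587 genes tested, 1633 were processed pseudogenes. Processed pseudogenes, which resemble the mRNA of their parent gene, rose in 504 and fell in 219 of these 1633 cases over the washout. Their median log2 fold change was 0.54, against 43 and 83 cases and a median of 0.03 in untreated cells. A sum over 1385 genes picked by a pseudogene symbol ending in ps went the other way. It was 1088.7 to 1105.4 CPM in the 4 washout libraries, against 1176.0 to 1891.9 CPM in the other 12. Ndufs5, a subunit of respiratory complex I and one of the 146, had 1.79 and 2.42 CPM in day 4 washout and 2.32 and 1.99 CPM in day 6 washout, against 14.5 and 15.2 CPM in day 4 auxin and 11.7 and 11.5 CPM in day 6 control. The part of this shift in the gene results was not tested. The shifted set held 66 protein-coding genes, too few for their removal to show what a wider shift did to the counts. The headline counts were recomputed over protein-coding genes without them. That left 8342 genes changed over the washout and 4143 with a change unlike that of untreated cells.

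Gene expression changed widely over the washout. Of 22587 genes tested, 10205 (45.2%) differed between day 4 washout and day 4 auxin at an adjusted p below 0.05, with 5068 (22.4%) higher and 5137 (22.7%) lower. At least 2-fold changes accounted for 2309 of the higher genes (10.2%) and 1856 of the lower ones (8.22%). In untreated cells, 6024 genes (26.7%) changed between day 4 and day 6, 3066 upward (13.6%) and 2958 downward (13.1%). The washout and untreated comparisons share no library, and 4312 genes were called in both, which is 42.3% of the washout calls and 71.6% of the untreated calls. Of these, 3945 moved the same way and 367 the opposite way. Across the 22587 genes, which are not independent replicates, the 2 changes had a Pearson correlation of 0.55. Washout cells differed from day 6 auxin cells in 7823 genes (34.6%; 17.3% higher and 17.3% lower) and from day 6 control cells in 7658 (33.9%; 16.8% higher and 17.1% lower). A direct test of the difference between the 2 changes called 4694 genes (20.8%), of which 2313 (10.2%) changed further upward over the washout and 2381 (10.5%) further downward. With the 8 embryonic stem cell libraries in the fit, 4306 genes were called over the washout and 537 for the difference, and lists described below also gave fewer calls.

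**Figure D1:**
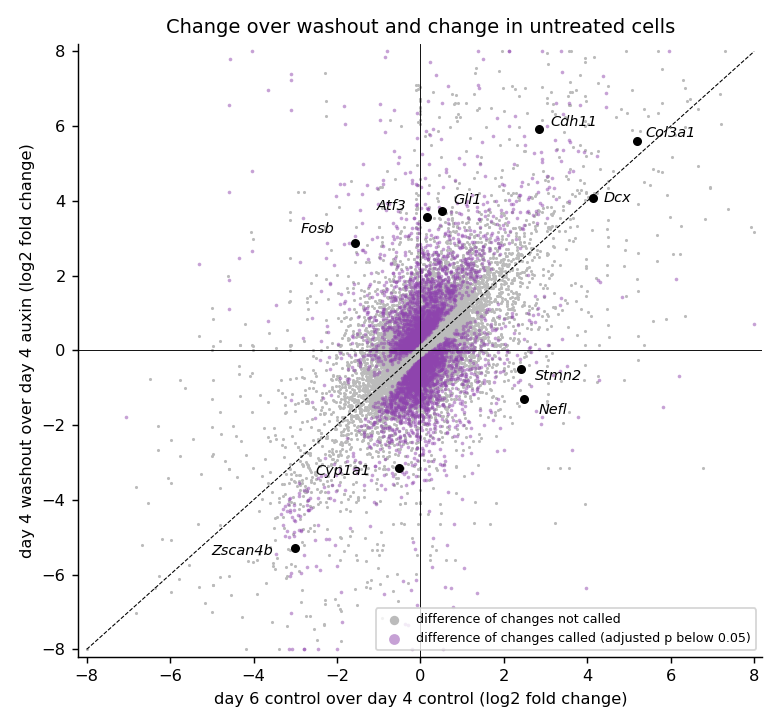
Log2 fold change of every tested gene over the washout (day 4 washout over day 4 auxin, vertical axis) against its change in untreated cells (day 6 control over day 4 control, horizontal axis), with values beyond 8 log2 units drawn at 8. The dashed line marks equal changes, and purple points are the 4694 genes whose difference was called. Atf3, Fosb and Gli1 lie far above the line, and Nefl and Stmn2 far below it.

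The 12 genes chosen for the largest increases (called genes at a mean of at least 1 on the log2 CPM scale, with groups that did not overlap) included genes of mesenchyme, cell adhesion and axon guidance. Unc5c, a netrin receptor (chr3:141465216-141834924 of mm10, plus strand), had 72.3 and 63.4 CPM in washout cells, against 0.958 and 0.458 CPM in day 4 auxin cells, and the 2 pairs of libraries lay far apart (log2 fold change 6.62 ± 0.20, adjusted p = 3.24e-13). It had 14.7 and 18.4 CPM where auxin was kept to day 6, 43.9 and 46.4 CPM in day 6 control and 3.85 and 3.78 CPM in day 4 control. Washout cells thus stood above all 4 other groups for this gene, and its increase exceeded that of untreated cells by 3.06 ± 0.27 on the log2 scale, adjusted p = 5.9e-07. Without day 4 auxin replicate 1 the Unc5c change was 7.21 and its difference 3.64 on the log2 scale. Cdh11, a cadherin of mesenchymal cells, reached 88.3 and 93.1 CPM in washout cells, against 1.57 and 1.43 CPM in day 4 auxin, 15.5 and 15.6 CPM in day 6 auxin and 35.3 and 37.2 CPM in day 6 control (log2 fold change 5.92 ± 0.14, adjusted p = 2.46e-14). Pcdh18, a protocadherin outside the 3 clusters, followed a like order, with 45.1 and 45.3 CPM in washout cells, against 1.33 and 1.49 CPM in day 4 auxin and 28.2 and 28.6 CPM in day 6 control. The others among the 12 were Cxcl15, Col3a1, Ncam2, Rbms3, Prmt8, Actg2, Ankrd1, Tnc and Cd248, with log2 fold changes of 4.79 to 6.52. Their groups did not overlap, as the choice of the 12 required. Col3a1, a fibrillar collagen, had 339.6 and 323 CPM in washout cells, against 7.18 and 6.39 CPM in day 4 auxin, but also 294 and 288 CPM in day 6 control and 7.74 and 8.23 CPM in day 4 control. Its change over the washout exceeded that of untreated cells by a small margin, at 0.43 ± 0.10 on the log2 scale, adjusted p = 0.00609, and 0.34 with an adjusted p of 0.0511 without day 4 auxin replicate 2. Actg2, a smooth muscle actin, had 26.7 and 24.6 CPM in washout and 25.8 and 26.2 CPM in day 6 auxin cells, a pair that did not differ beyond its error (adjusted p = 0.92, log2 difference −0.02 ± 0.11).

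Ctcf mRNA itself was lower after washout. It had 210.2 and 218 CPM in washout cells, against 288 and 279 CPM in day 4 auxin cells, with no overlap (log2 fold change −0.41 ± 0.085, adjusted p = 0.000883). Day 6 auxin cells had 257 and 271 CPM, day 6 control cells 207 and 208 CPM and day 4 control cells 230.2 and 232 CPM. Washout cells did not differ from day 6 control beyond the error (adjusted p = 0.75, log2 difference 0.04 ± 0.085). Among 18 genes of CTCF and the cohesin machinery, 7 fell, 1 rose and 10 missed the threshold, with a median log2 fold change of −0.15. Calls in either direction made up 44.4% of them, beside 45.2% of all genes tested. The largest fall was in Stag1, a cohesin subunit, with 174 and 166 CPM in washout cells, against 319 and 304 CPM in day 4 auxin, 289.5 and 299.6 CPM in day 6 auxin and 193 and 185 CPM in day 6 control (log2 fold change −0.87 ± 0.071, adjusted p = 4.3e-08). Rad21, the cleavable ring subunit, and Wapl, which releases cohesin from DNA, fell by less, at −0.23 and −0.25 on the log2 scale. Both calls were lost without day 4 auxin replicate 1 (adjusted p = 0.0662 and 0.183), and that of Wapl also without either washout library (adjusted p = 0.0727 and 0.082).

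Some auxins are indole compounds, and Cyp1a1, the classic target of the aryl hydrocarbon receptor, reports exposure to such ligands. Cyp1a1 fell to 1.73 and 2.22 CPM in washout cells, against 17.1 and 18.2 CPM in day 4 auxin cells, and day 6 auxin cells had 14 and 14.3 CPM (log2 fold change −3.15 ± 0.13, adjusted p = 1.3e-11). Untreated cells had 0.628 and 0.922 CPM on day 6 and 1.12 and 1.13 CPM on day 4, so washout cells lay above both. Of 11 genes of the receptor pathway tested, 4 rose, 6 did not pass and only Cyp1a1 fell, with a median of −0.03. The 4 make up 36.4% of the list, beside 22.4% of all genes tested that rose. Cyp1b1 rose to 52.2 and 50.02 CPM in washout cells, against 15.3 and 17.1 CPM in day 4 auxin (log2 fold change 1.66 ± 0.073, adjusted p = 1.9e-11). With all 24 libraries in the fit the calls of Cyp1a1 (adjusted p = 0.0898) and Cyp1b1 (adjusted p = 0.105) were lost. Gene changes that depend on auxin itself and those that depend on CTCF cannot be told apart here.

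Genes that auxin had altered on day 6 more often changed over the washout in the direction of the untreated level than away from it. These genes were picked in day 6 auxin and day 6 control libraries, none of which enters the washout comparison, and 6588 genes (29.2%) differed there, 3159 higher with auxin (14%) and 3429 lower (15.2%). Of the 3429 lower genes 49.6% rose over the washout and 12.5% fell, and of the 3159 higher genes 52.2% fell and 15.2% rose. Of 1085 genes at least 2-fold lower with auxin on day 6 (4.8% of all tested), 607 rose over the washout (55.9%, against 22.4% of all genes), 114 fell and 364 did not pass. Of 947 genes at least 2-fold higher with auxin (4.19%), 521 fell (55%, against 22.7% of all genes), 98 rose and 328 did not pass. Their median log2 fold changes were 1.03 and −0.79, beside 0.00 over all genes. The same 1085 genes rose in 62.1% of cases in untreated cells, with a median of 1.05, and 62.9% of them were lower in washout than in day 6 control cells. Of the 947 genes, 38.8% fell in untreated cells and 49.4% were higher in washout than in day 6 control cells. These last comparisons use the day 6 control libraries that picked the genes, so they are given as description. The difference of changes, which uses them too, was called higher for 255 and lower for 206 of the 1085 genes (median 0.10), and higher for 73 and lower for 208 of the 947 (median −0.22). The 6 genes raised most by auxin on day 6 all fell over the washout. Fam110c had 6.35 and 6.01 CPM in washout cells, against 28.9 and 28.8 CPM in day 4 auxin, 29.9 and 29.3 CPM in day 6 auxin and 4.396 and 4.32 CPM in day 6 control (log2 fold change −2.22 ± 0.093, adjusted p = 1.05e-11). Gsdma, a pore-forming gasdermin, had 2.71 and 2.91 CPM in washout cells, against 19.1 and 20.6 CPM in day 4 auxin, and Dlx3, a homeobox factor of ectoderm, had 1.38 and 1.23 CPM against 7.35 and 6.89 CPM. Slc25a48 and Dppa1 fell by 1.84 and 1.26 on the log2 scale, to 1.32 and 1.75 CPM and 1.13 and 1.26 CPM in washout cells.

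The 6 genes lowered most by auxin on day 6 behaved differently, and none came near the day 6 control level. The day 6 control libraries also picked these genes, so the distance from that level is given as description. Dcx, which rose, and Cntn2 belong to the 6 and are described below with the neuronal genes. Rfx4, a transcription factor of neural progenitors, had 0.721 and 0.385 CPM in washout cells, against 0.589 and 0.702 CPM in day 4 auxin and 13.9 and 14.1 CPM in day 6 control, and its washout change did not pass (adjusted p = 0.556). Elavl4, an RNA-binding protein of neurons, had 1.05 and 1.16 CPM in washout cells, against 0.626 and 0.397 CPM in day 4 auxin and 18.9 and 21.2 CPM in day 6 control. Miat, a long noncoding RNA, had 1.48 and 1.44 CPM in washout cells, against 0.497 and 0.595 CPM in day 4 auxin and 22.3 and 18.9 CPM in day 6 control. Elavl4 and Miat rose, by 1.13 and 1.4 on the log2 scale. Tmem132e had 2.201 and 1.82 CPM in washout cells, against 2.28 and 1.71 CPM in day 4 auxin and 35.6 and 33.8 CPM in day 6 control, and its change did not pass. Versican (Vcan, chr13:89655312-89742509 of mm10, minus strand), a large proteoglycan of the extracellular matrix, recovered further. It had 143 and 119 CPM in washout cells, against 11.9 and 11 CPM in day 4 auxin cells, 51.5 and 56.5 CPM in day 6 auxin, 228 and 222 CPM in day 6 control and 83.2 and 87.3 CPM in day 4 control (log2 fold change 3.52 ± 0.18, adjusted p = 1.08e-10). Both washout libraries lay above every auxin library and below both day 6 control libraries, and the gain exceeded that of untreated cells by 2.12 ± 0.23 on the log2 scale, adjusted p = 6.29e-06.

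The clustered protocadherins rose together. These genes encode cadherins that give neurons their cell-surface identity. CTCF bound at many of their promoters, but not all, and at distant enhancers is part of their choice. Their exons lie in tandem on chromosome 18 and resemble each other, and the gamma genes share constant exons, so reads may be split between copies and the values of single members are uncertain. Of 21 gamma cluster genes, 19 rose, 1 fell and 1 did not pass, with a median log2 fold change of 2.11. Summed over the cluster, washout libraries had 66.97 and 61.7 CPM, day 4 auxin libraries 24.1 and 26.8 CPM, day 6 auxin libraries 38.02 and 37.9 CPM, day 6 control libraries 86.5 and 87.2 CPM, and day 4 control libraries 63.97 and 65.5 CPM. Washout cells thus lay at the day 4 control level and below day 6 control. Against the change of untreated cells, 17 of the 21 rose further and none less, with a median difference of 1.63. Pcdhga5 had 3.25 and 2.86 CPM in washout cells, against 0.147 and 0.0305 CPM in day 4 auxin and 4.36 and 4.96 CPM in day 6 control (log2 fold change 5.15 ± 0.33, adjusted p = 2.39e-09), or 6.55 and 4.35 without replicate 1 or 2 of day 4 auxin. Pcdhga7 had 3.896 and 3.64 CPM in washout cells, against 0.166 and 0.305 CPM in day 4 auxin, and its gain exceeded that of untreated cells by 3.08 ± 0.38 on the log2 scale, adjusted p = 2.49e-05. Pcdhgb4 stood at 6.27 and 4.695 CPM in washout cells, against 1.07 and 1.13 CPM in day 4 auxin and 3.701 and 3.18 CPM in day 6 control, which put it above the untreated level. Pcdhgc3 rose by less, with 22.4 and 21.3 CPM in washout cells, against 11.3 and 13.8 CPM in day 4 auxin (log2 fold change 0.8 ± 0.15, adjusted p = 0.000402). Pcdhgc4 fell, at 1.25 and 0.736 CPM in washout cells, against 1.71 and 2.01 CPM in day 4 auxin (log2 fold change −0.92 ± 0.34, adjusted p = 0.036), and Pcdhgc5 did not pass. The call of Pcdhgc4 was lost without washout replicate 2 (adjusted p = 0.282) and without replicate 1 or 2 of day 4 auxin (adjusted p = 0.0653 and 0.168).

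**Figure D2:**
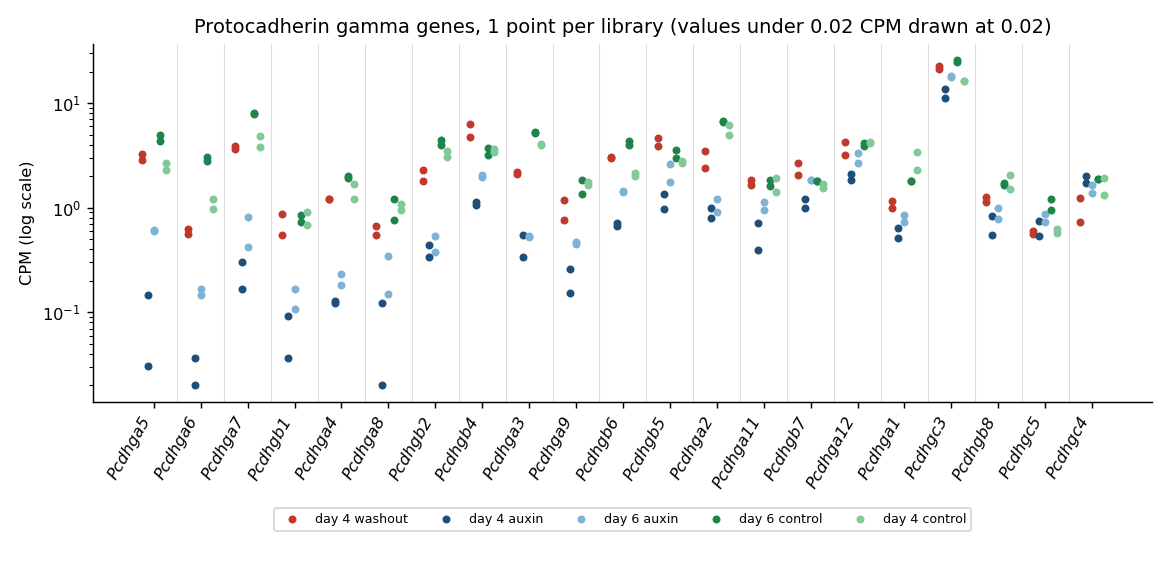
CPM of the 21 tested protocadherin gamma genes in each library (log scale, 1 point per library, values under 0.02 drawn at 0.02), ordered by their change over the washout. For 19 genes the 2 washout libraries are called higher than the 2 day 4 auxin libraries, and Pcdhgc4 is called lower.

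In the beta cluster, 18 of 20 tested genes rose and 2 did not pass. In untreated cells 13 of the 20 rose and none fell, with a median of 1.79. Against that change, 5 rose further over the washout, none less, and 15 did not pass. The median log2 fold change over the washout was 3.34 as fitted. It was 3.15 with the 4 genes that had 0 counts in both day 4 auxin libraries set to their lower bound. Pcdhb6 had 1.81 and 1.17 CPM in washout cells and no count in day 4 auxin. Against the limit of 3 counts over that group (0.025 CPM), it was at least 59-fold higher, and Pcdhb4, Pcdhb21 and Pcdhb5 were at least 14.4-fold, 10.7-fold and 7-fold higher. Pcdhb22 had 1.68 and 1.94 CPM in washout cells, against 0.111 and 0.0915 CPM in day 4 auxin and 9.502 and 9.27 CPM in day 6 control (log2 fold change 4.15 ± 0.36, adjusted p = 7.56e-08). Summed beta expression was 16.6 and 13.4 CPM in washout cells, against 2.17 and 1.998 CPM in day 4 auxin, and 35.2 and 33.9 CPM in day 6 control.

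Neuronal genes rose only in part. Differentiating neurons switch on microtubule proteins such as Dcx and Tubb3, RNA-binding Elavl proteins and neurofilaments, all well before they mature. Of 34 genes of young neurons, 16 rose over the washout, 5 fell and 13 did not pass, with a median log2 fold change of 0.80. In untreated cells, 30 rose and none fell, with a median of 2.51. For 19 genes the washout change was lower than the untreated change in the direct test, and for none was it higher. Summed CPM was 209 and 204 in washout cells, against 168 and 171 in day 4 auxin, 240.2 and 237 in day 6 auxin, 778 and 821 in day 6 control, and 202 and 204 in day 4 control. Fewer neurons and less RNA per neuron cannot be told apart in such bulk samples. Dcx (chrX:143855842-143933311 of mm10, minus strand) rose most, to 4.99 and 5.19 CPM in washout cells, against 0.258 and 0.336 CPM in day 4 auxin, 2.57 and 1.92 CPM in day 6 auxin and 52.9 and 52.6 CPM in day 6 control (log2 fold change 4.07 ± 0.19, adjusted p = 5.14e-11). The fold matched that of untreated cells, whose day 4 level was 3.01 and 2.97 CPM, within the error of the difference (−0.07 ± 0.31 on the log2 scale, adjusted p = 0.917), but the level stayed far below day 6 control. Tubb3, the neuronal tubulin, had 8.92 and 8.27 CPM in washout cells, against 3.37 and 2.87 CPM in day 4 auxin, and 72.2 and 79.6 CPM in day 6 control (log2 fold change 1.47 ± 0.11, adjusted p = 1.45e-08).

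Several neuronal genes went the other way. Nefl, the light neurofilament subunit, had 4.67 and 5.85 CPM in washout cells, against 12.9 and 13.2 CPM in day 4 auxin, 13.05 and 12.1 CPM in day 6 auxin, 19.7 and 21.2 CPM in day 6 control and 3.38 and 3.92 CPM in day 4 control. It fell over the washout where untreated cells gained, and the difference was −3.79 ± 0.18 on the log2 scale, adjusted p = 1.43e-09. Mapt, which encodes the protein tau, fell to 10.8 and 11.9 CPM in washout cells, against 37.6 and 38.2 CPM in day 4 auxin and 34.8 and 37.2 CPM in day 6 auxin, while day 6 control had 16.1 and 16.7 CPM (log2 fold change −1.74 ± 0.096, adjusted p = 3.01e-10). Auxin cells of both days thus held more Mapt than any untreated or washout library. Stmn2, a tubulin-binding protein of growing axons, had 4.17 and 4.695 CPM in washout cells, against 6.89 and 5.73 CPM in day 4 auxin and 32.02 and 34.6 CPM in day 6 control, and L1cam, an axonal adhesion molecule, had 1.87 and 1.73 CPM, against 3.297 and 3.66 CPM and 12.6 and 13.2 CPM. Both fell, by 0.5 and 0.95 on the log2 scale. Cntn2, an axonal adhesion molecule of early neurons, did not pass over the washout, with 2.61 and 2.98 CPM in washout cells, against 2.39 and 2.99 CPM in day 4 auxin (adjusted p = 0.818), whereas day 6 control cells had 75.4 and 78.7 CPM and day 4 control cells 10.2 and 11.2 CPM.

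**Figure D3:**
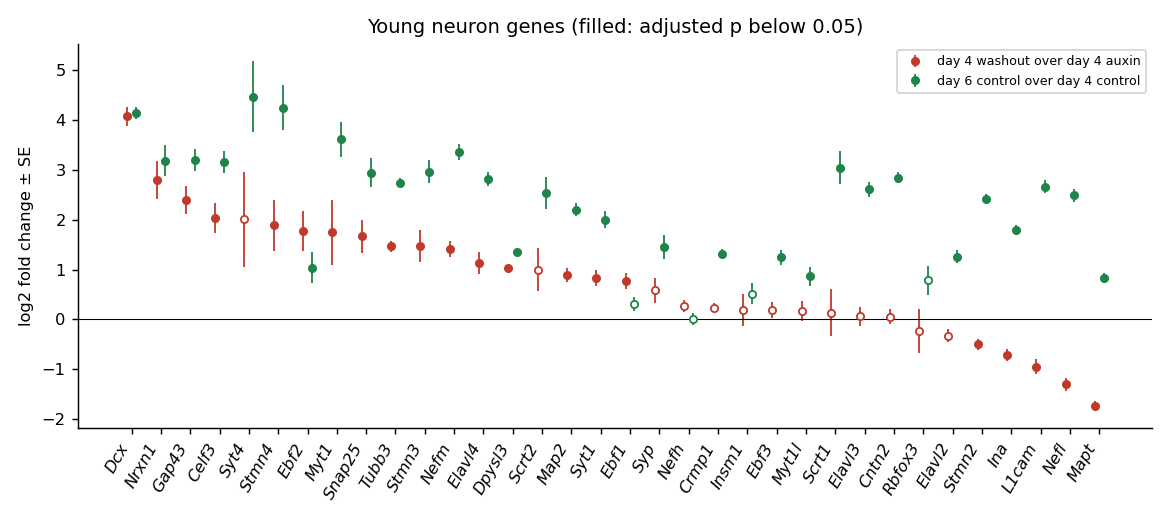
Log2 fold change with its SE of 34 young neuron genes over the washout (red, day 4 washout over day 4 auxin) and in untreated cells (green, day 6 control over day 4 control). Filled points passed an adjusted p of 0.05, which 16 genes did upward and 5 downward over the washout, and 30 upward in untreated cells.

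Of 21 genes of neural progenitors and radial glia, 15 were lower and 2 higher in washout than in day 6 control cells, with a median log2 difference of −1.14. Sox1, the earliest neuroectoderm marker, had 1.79 and 1.402 CPM in washout cells, against 4.51 and 4.53 CPM in day 4 auxin, 14.7 and 16.7 CPM in day 6 control and 25.9 and 26.2 CPM in day 4 control (log2 fold change −1.51 ± 0.17, adjusted p = 2.35e-06). Pax6, a patterning factor of neural progenitors, had 10.3 and 9.04 CPM in washout cells, against 15.2 and 13.99 CPM in day 4 auxin and 33.2 and 33.7 CPM in day 6 control. Olig2, a factor of ventral progenitors, stayed near 0 at 0.156 and 0.105 CPM in washout cells and 0.147 and 0.244 CPM in day 4 auxin, against 6.38 and 6.24 CPM in day 6 control. Nes, an intermediate filament of progenitors and other immature cells, rose to 203 and 194 CPM in washout cells, against 69.2 and 77.4 CPM in day 4 auxin and 147 and 144 CPM in day 6 control (log2 fold change 1.44 ± 0.074, adjusted p = 1.5e-10). Over the washout 10 of the 21 genes rose (47.6%, against 22.4% of all genes), 8 fell (38.1%, against 22.7%) and 3 did not pass. The median of the 21 genes was 0.24. Ptn, a secreted growth factor, led them with 81.4 and 72.1 CPM in washout cells, against 4.75 and 4.88 CPM in day 4 auxin and 74.9 and 77.1 CPM in day 6 control (log2 fold change 3.99 ± 0.094, adjusted p = 2.21e-14). Pou3f2, a neural POU factor, had 4.09 and 4.12 CPM in washout cells, against 0.8104 and 0.702 CPM in day 4 auxin. Ncan, a neural proteoglycan, fell by 0.85 on the log2 scale, to 1.66 and 1.12 CPM in washout cells, against 2.56 and 2.44 CPM in day 4 auxin, and the call was lost without washout replicate 2 (adjusted p = 0.123).

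Among 13 proneural factors, which commit cells to neurons, 5 rose (38.5%), 1 fell (7.69%) and 7 did not pass, with a median of 1.03. Of all genes tested, 22.4% rose and 22.7% fell. Neurod4 had 0.429 and 0.491 CPM in washout cells and no count in day 4 auxin, at least 18.4-fold higher, and day 6 control cells had 10.9 and 10.1 CPM. Bhlhe22 reached 7.87 and 7.24 CPM in washout cells, against 1.07 and 1.14 CPM in day 4 auxin and 5.57 and 5.24 CPM in day 6 control. Factors of motor neurons and interneurons were split, with 10 of 32 higher (31.2%), 12 lower (37.5%) and a median of −0.58. Isl1, which specifies motor neurons among other cells, had 5.69 and 6.29 CPM in washout cells, against 0.884 and 0.915 CPM in day 4 auxin and 12.03 and 12.7 CPM in day 6 control, a change equal to that of untreated cells within its error (0.02 ± 0.19 on the log2 scale, adjusted p = 0.96). Neural tube patterning factors gave 2 higher and 5 lower of 19, with a median of −0.62. These shares were 10.5% and 26.3%, beside 22.4% and 22.7% of all genes tested. The washout change was higher than the untreated change for 9 and lower for 1. In level, 2 were higher and 11 lower in washout than in day 6 control cells, with a median log2 difference of −0.84. Irx3 had 11.1 and 10.1 CPM in washout cells, against 36.9 and 37.2 CPM in day 4 auxin, while day 6 control cells had 9.29 and 11.9 CPM and day 4 control cells 57.4 and 64.2 CPM, so it fell in both settings and by less over the washout. Ngfr, a neurotrophin receptor, and Ret, the receptor of glial-derived neurotrophic factor, were among the 12 genes furthest below the untreated change. Ret had 2.51 and 2.72 CPM in washout cells, against 12.1 and 13.3 CPM in day 4 auxin and 17.1 and 15.8 CPM in day 6 control (log2 fold change −2.28 ± 0.14, adjusted p = 7.91e-10).

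Most pluripotency genes fell over the washout. Of 28 core and naive genes, 21 fell, 2 rose and 5 did not pass, with a median log2 fold change of −0.69, and in untreated cells 24 fell and none rose, with a median of −0.71. The 2 changes differed in the direct test for 12 of the 28, with 5 higher and 7 lower over the washout. Pou5f1, which maintains the pluripotent state, had 158 and 155 CPM in washout cells, against 217 and 220.0 CPM in day 4 auxin, 175 and 169.6 CPM in day 6 auxin and 85.8 and 80.1 CPM in day 6 control. Washout cells thus kept a level near that of day 4 control cells, which had 144 and 139.7 CPM. Nanog had 20.04 and 20.8 CPM in washout cells, against 31.8 and 30.1 CPM in day 4 auxin and 10.7 and 10.9 CPM in day 6 control. Sox2, shared with neural progenitors, had 30.8 and 28.3 CPM in washout cells, against 64.98 and 59.9 CPM in day 4 auxin and 36.2 and 37.7 CPM in day 6 control. Lin28a and Sall4, which serve early embryonic cells, fell by 1.44 and 1.42 on the log2 scale, to 87.8 and 107 CPM and 103 and 118 CPM in washout cells. The 2 washout libraries differed more in Lin28a than the 2 auxin libraries did, but stayed far below them.

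The 12 genes chosen in the same way for the largest decreases belonged mostly to families of the two-cell-like state, a rare condition of embryonic stem cells that resembles the early cleavage embryo. Of 17 such genes tested, 16 fell and 1, Eif1a, rose, with a median log2 fold change of −4.09, or −3.91 with Tdpoz1, which had 0 counts in washout cells, at its bound. Without day 4 auxin replicate 2 the adjusted p of Eif1a was 0.0528. In untreated cells 15 fell, with a median of −2.92. The Zscan4 and Usp17l families made up 11 of these 12, and Pramef25 was the other. Their copies are nearly identical, so the counts of single copies are uncertain. The promoter windows of Zscan4b and Zscan4f, taken from RefSeq (GRCm38.p6) from 250 bases before to 50 after the start, show how alike the copies are, with 287 of 300 bases identical. Among genes with a window, a 12-base core of the CTCF motif lay in 2 of 6 of the largest decreases. These were Zscan4b and Zscan4f, whose near-identical windows are not separate cases. The core lay in 1 of 9 of the largest increases, that of Cxcl15, and in 1 of 12 immediate early genes, Nr4a1. Among the genes chosen for the difference of changes, none of 7 held it in either direction. None of the genes raised or lowered most by auxin on day 6 held it. Capitals below mark matches to this core, CCANNAGNNGGC, searched on both strands, which 797 of 32851 promoter windows (2.43%) hold.
Zscan4b, chr7:10905001-10905300, minus strand: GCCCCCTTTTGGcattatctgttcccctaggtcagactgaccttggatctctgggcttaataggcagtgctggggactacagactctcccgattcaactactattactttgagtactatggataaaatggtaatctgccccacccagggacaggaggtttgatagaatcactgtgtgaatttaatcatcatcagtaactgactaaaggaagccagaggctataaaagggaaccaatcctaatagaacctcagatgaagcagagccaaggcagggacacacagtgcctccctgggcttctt
Zscan4f, chr7:11397665-11397964, plus strand: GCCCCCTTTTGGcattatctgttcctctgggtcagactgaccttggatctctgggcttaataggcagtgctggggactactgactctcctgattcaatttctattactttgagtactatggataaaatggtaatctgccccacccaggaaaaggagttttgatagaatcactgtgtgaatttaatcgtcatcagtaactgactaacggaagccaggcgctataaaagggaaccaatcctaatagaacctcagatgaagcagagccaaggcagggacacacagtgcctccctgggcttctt
Zscan4d had 2.71 and 3.54 CPM in washout cells, against 96.1 and 83.7 CPM in day 4 auxin, 7.501 and 7.59 CPM in day 6 auxin, 10.6 and 9.24 CPM in day 6 control and 97.7 and 84.7 CPM in day 4 control (log2 fold change −4.84 ± 0.16, adjusted p = 8.79e-13). Zscan4b had 1.09 and 1.17 CPM in washout cells, against 47.8 and 40.4 CPM in day 4 auxin, and Zscan4f had 1.32 and 1.31 CPM against 29.4 and 26.9 CPM. Washout cells lay below day 6 cells with and without auxin for all 3 copies. The change of Zscan4b differed from that of untreated cells by −2.26 on the log2 scale (adjusted p = 6.92e-07).

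Immediate early genes were high in washout cells. These genes are switched on within minutes of a growth signal, stress or a change of medium, through factors such as SRF that bind CArG boxes. All 18 tested members rose over the washout, with a median log2 fold change of 2.19, and for 17 the change exceeded that of untreated cells, where 3 rose and 7 fell. Their summed level was 1293 and 1276 CPM in day 4 washout and 997 and 1079 CPM in day 6 washout, against 263 to 484 CPM in the 12 differentiation libraries that were not from washout. For 16 of the 18 genes both day 4 washout libraries lay above all 12 of these. The same count was not made over all genes tested, so it is given as description. Members Egr2, Egr3 and Fosl1 belong to the 146 genes that set both day 6 washout libraries apart. The time between the last change of medium and harvest is not given in the sources used here, and its part in the result was not tested.

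Fosb (chr7:19302696-19310051 of mm10, minus strand), a subunit of the AP-1 factor, led the 12 genes chosen by the same rule for a gain beyond that of untreated cells. It had 57.3 and 57.6 CPM in washout cells, against 6.63 and 9.09 CPM in day 4 auxin, 2.91 and 2.501 CPM in day 6 auxin, 8.59 and 3.94 CPM in day 6 control and 13.7 and 23.2 CPM in day 4 control, and the replicates of the controls differed more than those of the washout (4.44 ± 0.39 on the log2 scale, adjusted p = 6.59e-07 for the difference, and 5.09 without day 6 control replicate 1). Fos, another member of its family, had 105 and 116 CPM in washout cells, against 22.3 and 24.7 CPM in day 4 auxin. Egr1, a zinc finger factor, had 281 and 277 CPM against 74.3 and 80.5 CPM. Atf3, a stress-induced factor, had 94.7 and 90.2 CPM in washout cells, against 6.85 and 8.78 CPM in day 4 auxin and 8.66 and 10.5 CPM in day 6 control (log2 fold change 3.56 ± 0.12, adjusted p = 8.79e-13). Myc, a growth factor-responsive transcription factor, had 57.03 and 56.5 CPM in washout cells, against 11.3 and 10.7 CPM in day 4 auxin and 18.8 and 19.5 CPM in day 6 control (log2 fold change 2.37 ± 0.085, adjusted p = 1.93e-12). Egr3 had the largest fold, with 9.19 and 7.87 CPM in washout cells, against 0.147 and 0.183 CPM in day 4 auxin (log2 fold change 5.66 ± 0.49, adjusted p = 7.55e-08). The smallest change was in Spry2, a feedback inhibitor of growth factor signalling, at 0.58 on the log2 scale. Egr2 had 7.48 and 8.57 CPM in washout cells, against 0.976 and 0.946 CPM in day 4 auxin. RefSeq promoter windows were present for 12 of the 18 genes, and 1 of them, that of Egr2, held a CArG box, as did 535 of 32851 windows (1.63%). The window is shown because it is the only one of the group with this motif within 300 bases, and capitals mark the box.
Egr2, chr10:67537316-67537615, plus strand: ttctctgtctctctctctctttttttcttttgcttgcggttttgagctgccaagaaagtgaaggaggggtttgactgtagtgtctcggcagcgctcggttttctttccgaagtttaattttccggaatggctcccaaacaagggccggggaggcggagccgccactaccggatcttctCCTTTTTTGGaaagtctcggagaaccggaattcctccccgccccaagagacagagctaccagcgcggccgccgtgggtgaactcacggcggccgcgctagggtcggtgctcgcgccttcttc
A full palindromic cAMP response element, TGACGTCA, lay in the window of 1 other member, Dusp1, and in 588 windows (1.79%) of all.

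**Figure D4:**
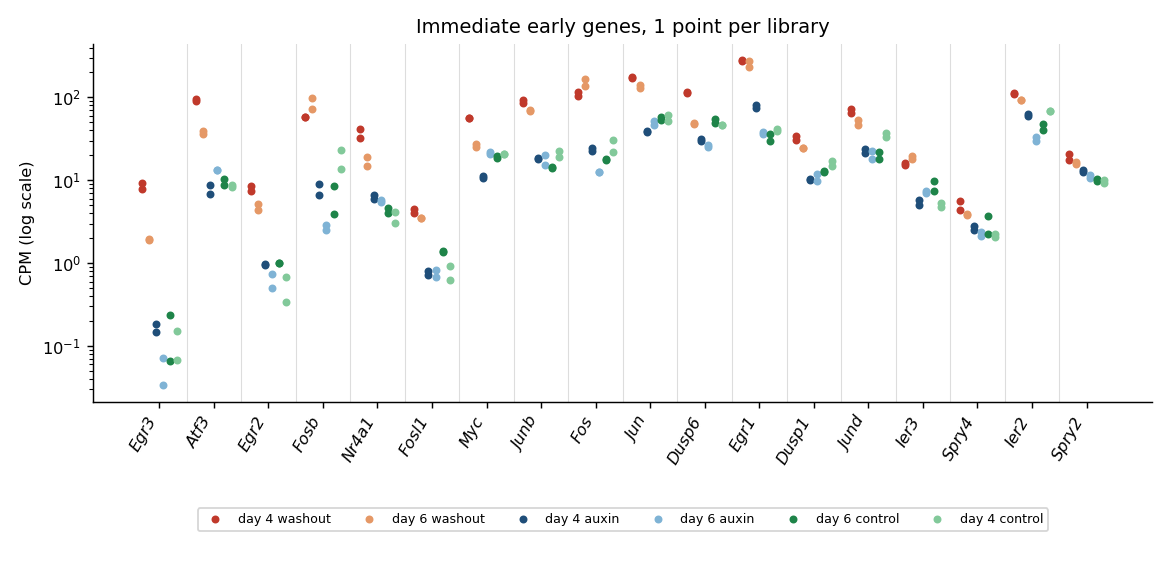
CPM of the 18 immediate early genes in each library (log scale, 1 point per library), ordered by their change over the washout. Both washout groups lie above the auxin and control groups for most genes, and all 18 were called higher in day 4 washout than in day 4 auxin.

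Ankrd1, Tagln and Edn1 were among the 12 genes chosen for a gain beyond that of untreated cells, so their differences are given as description. Ankrd1, a muscle ankyrin repeat protein and a known target of the YAP coactivator, had 31.1 and 33.1 CPM in washout cells, against 0.829 and 1.17 CPM in day 4 auxin, 2.71 and 2.72 CPM in day 6 auxin and 2.41 and 2.85 CPM in day 6 control (3.95 ± 0.21 on the log2 scale, adjusted p = 4.96e-09 for the difference). Ctgf, another YAP target and one of the 146 genes that set both day 6 washout libraries apart, had 162 and 149.7 CPM in washout cells, against 33.4 and 34.6 CPM in day 4 auxin and 28.2 and 30.99 CPM in day 6 control. Tagln, an actin-binding protein of smooth muscle, had 20.4 and 18.97 CPM in washout cells, against 0.755 and 0.915 CPM in day 4 auxin and 1.69 and 1.96 CPM in day 6 control. Edn1, the vasoconstrictor endothelin, had 32.9 and 30.3 CPM in washout cells, against 1.36 and 1.14 CPM in day 4 auxin and 3.35 and 4.12 CPM in day 6 control. With all 24 libraries in the fit, the differences of Ankrd1 (adjusted p = 0.0522) and Edn1 (adjusted p = 0.241) and the washout change of Ctgf (adjusted p = 0.0576) were not called. In all 4 genes both washout libraries lay above every library of the 4 other groups. Of 18 genes of BMP and TGF beta signalling, 15 rose, 1 fell and 2 did not pass, with a median of 0.73, and for 13 the change was higher and for 2 lower than in untreated cells. Tgfb2, a ligand, had 69.2 and 60.3 CPM in washout cells, against 6.19 and 6.48 CPM in day 4 auxin, 42.02 and 45.1 CPM in day 6 auxin and 40.9 and 44.2 CPM in day 6 control (log2 fold change 3.35 ± 0.094, adjusted p = 1.7e-13). Bmp4 rose to 19.2 and 18.7 CPM in washout cells, against 2.23 and 2.94 CPM in day 4 auxin, and Chrd, a secreted BMP antagonist, fell to 1.23 and 1.02 CPM, against 3.205 and 3.07 CPM.

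Genes of fibroblasts and muscle, cell types outside the neural lineage, rose over the washout and also where auxin was kept. Of 22 fibroblast and mesenchyme genes, 15 rose, 2 fell and 5 did not pass, with a median of 2.21, and 15 also rose in untreated cells. Their summed level was 1976 and 1768 CPM in washout cells, against 1202 and 1225 CPM in day 4 auxin, 1873 and 1914 CPM in day 6 auxin and 1966 and 1880.4 CPM in day 6 control. Gene by gene, 14 of the 22 were higher and 2 lower in washout than in day 6 auxin cells (63.6% and 9.09%). Over all genes these shares were 17.3% each way. The median log2 difference of the 22 was 0.72. Lum, a collagen-binding proteoglycan, had 20.1 and 21.7 CPM in washout cells, against 0 and 0.0915 CPM in day 4 auxin, and Prrx1, a mesenchymal homeobox factor, had 6.88 and 7.46 CPM against 0.405 and 0.732 CPM. Of 19 muscle genes, 12 rose, 1 fell and 6 did not pass, with a median of 1.14 (1.01 with Myod1, at 0 in day 4 auxin, at its bound), and for 9 the change was higher than in untreated cells. Acta2, smooth muscle actin, had 583 and 528 CPM in washout cells, against 54.1 and 63.5 CPM in day 4 auxin (log2 fold change 3.24 ± 0.085, adjusted p = 6.67e-14), but day 6 auxin cells had 614 and 614 CPM as well. It did not differ between washout and day 6 auxin beyond its error (adjusted p = 0.159, log2 difference −0.15 ± 0.077). Between day 6 auxin and day 4 auxin, a comparison that shares the day 4 auxin libraries, 5896 of all genes were called (26.1%, with 12.8% higher and 13.3% lower). There 12 muscle genes rose and 1 fell, with a median of 1.00, and 14 fibroblast genes rose and 1 fell, with a median of 1.47. How far these cells account for changes of genes they share with neural cells was not tested.

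Of 16 matrix proteoglycan genes, 8 rose (50%, against 22.4% of all genes) and 4 fell (25%, against 22.7%), with a median of 0.53. Edil3, an integrin-binding matrix protein, had 17.8 and 17.6 CPM in washout cells, against 0.147 and 0.214 CPM in day 4 auxin and 13.8 and 15.5 CPM in day 6 control. Hapln1, a link protein that joins versican to hyaluronan, had 16.9 and 16.98 CPM in washout cells, against 0.6999 and 0.915 CPM in day 4 auxin and 17.8 and 16.5 CPM in day 6 control. Neither differed from day 6 control beyond its error, with log2 differences of 0.27 ± 0.13 (adjusted p = 0.117) and −0.02 ± 0.17 (adjusted p = 0.949).

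The hedgehog target Gli1 rose to a level that did not differ from day 6 control beyond its error (log2 difference −0.17 ± 0.087, adjusted p = 0.154). Gli1 (chr10:127329882-127341974 of mm10, minus strand), a transcription factor induced by hedgehog signalling, had 31.6 and 33.3 CPM in washout cells, against 2.23 and 2.62 CPM in day 4 auxin, 10.4 and 11.7 CPM in day 6 auxin, 36.6 and 36.5 CPM in day 6 control and 24.9 and 26.02 CPM in day 4 control (log2 fold change 3.74 ± 0.11, adjusted p = 2.64e-13). Hhip, a decoy receptor and target of the pathway, had 21.8 and 18.4 CPM in washout cells, against 4.75 and 5.38 CPM in day 4 auxin. Ptch1, the hedgehog receptor and also a target, did not pass, with 216 and 203 CPM in washout cells, against 192 and 197 CPM in day 4 auxin (adjusted p = 0.462), and the ligand Shh fell to 3.08 and 3.43 CPM, against 9.26 and 8.31 CPM. Over the 15 genes of the pathway, 7 rose and 5 fell, with a median of 0.11. These shares were 46.7% and 33.3%, beside 22.4% and 22.7% of all genes tested. Osr1, a factor of intermediate mesoderm, had 17.8 and 20.3 CPM in washout cells, against 1.64 and 1.71 CPM in day 4 auxin and 38.7 and 40.7 CPM in day 6 control.

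Imprinted genes gave 14 higher, 3 lower and 7 not passed of 24, with a median of 0.44. H19, a noncoding RNA whose imprint control region binds CTCF, had 379 and 377 CPM in washout cells, against 21.7 and 21.4 CPM in day 4 auxin, 83.6 and 85.9 CPM in day 6 auxin, 427 and 424 CPM in day 6 control and 144 and 149 CPM in day 4 control (log2 fold change 4.14 ± 0.073, adjusted p = 6.03e-16). Its gain exceeded that of untreated cells by 2.6 ± 0.092 on the log2 scale, adjusted p = 1.13e-10. Igf2, the neighbouring growth factor, had 2738 and 2362 CPM in washout cells, against 199 and 206 CPM in day 4 auxin, 1639 and 1637 CPM in day 6 auxin and 2614 and 2676 CPM in day 6 control (log2 fold change 3.65 ± 0.067, adjusted p = 6.52e-16). Both stood above day 6 auxin in washout cells, H19 by 2.16 and Igf2 by 0.64 on the log2 scale. With all 24 libraries in the fit, the difference of H19 (adjusted p = 0.201) and the comparisons of H19 (adjusted p = 0.063) and Igf2 (adjusted p = 0.236) with day 6 auxin lost their calls. Plagl1, a zinc finger regulator of growth, had 973 and 860.1 CPM in washout cells, against 76.8 and 84.5 CPM in day 4 auxin and 982 and 985 CPM in day 6 control. The counts are not split by parental allele.

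Cholesterol synthesis genes rose together by small amounts. Among 24 tested, 18 rose and 3 fell, with a median of 0.45, whereas none rose and 3 fell in untreated cells, and for 15 the washout change was the higher of the 2 and for 2 the lower. Hmgcs1, an early enzyme of the pathway, had 258 and 257 CPM in washout cells, against 161 and 155 CPM in day 4 auxin and 339 and 328 CPM in day 6 control (log2 fold change 0.71 ± 0.059, adjusted p = 5.58e-08). Srebf2, which drives these genes, had 371 and 345 CPM in washout cells, against 219 and 231 CPM in day 4 auxin, and Idi1 fell to 8.55 and 8.76 CPM, against 13.6 and 12.6 CPM. Levels of Hmgcs1 and of the summed list (2617 and 2574 CPM in washout cells, against 1989 and 2007 CPM in day 4 auxin and 2844 and 2867 CPM in day 6 control) moved toward the untreated level without reaching it.

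Many stress and growth arrest genes rose over the washout, and many also rose where auxin was kept. Of 20 p53 targets, 15 rose, 1 fell and 4 did not pass, with a median of 0.61, beside 12 that rose in untreated cells. Plk2, a kinase of the p53 response, had 216 and 203 CPM in washout cells, against 43.6 and 41.03 CPM in day 4 auxin and 104 and 100.2 CPM in day 6 control (log2 fold change 2.31 ± 0.066, adjusted p = 1.99e-13), and Cdkn1a, the cyclin kinase inhibitor p21, had 189 and 179.9 CPM against 66 and 67.3 CPM and 123 and 128 CPM. With auxin kept, in day 6 auxin against day 4 auxin, 14 targets rose and none fell. For 8 targets the change was higher than in untreated cells and for none lower. Integrated stress response genes rose in 11 of 18 cases and fell in 3, with a median of 0.44, and 13 changed further upward and 3 further downward than in untreated cells. With auxin kept, 10 rose and 3 fell. Atf4, the central factor of the response, had 282 and 287 CPM in washout cells, against 197 and 201 CPM in day 4 auxin, and Phgdh, a serine synthesis enzyme, fell to 73.6 and 72.9 CPM, against 148 and 160.4 CPM. Of 10 genes of cell cycle exit, 6 rose and 2 fell, with a median of 0.98, beside 5 and 1 with auxin kept, and Btg2, an antiproliferative gene, had 188 and 173 CPM in washout cells, against 49.03 and 51.5 CPM in day 4 auxin. Genes of G2 and mitosis fell in 10 of 20 cases and rose in none, with a median of −0.18, but 6 fell without day 4 washout replicate 1 and 5 without day 4 auxin replicate 1. With auxin kept, 9 fell and none rose. Ccnb1, the mitotic cyclin, had 174 and 175 CPM in washout cells, against 251 and 249.8 CPM in day 4 auxin. Genes of G1 and S phase gave 9 higher and 4 lower of 24, with a median of 0.00. These shares were 37.5% and 16.7%, beside 22.4% and 22.7% of all genes tested.

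The remaining lists are given by their counts. Over all genes tested, 22.4% were higher and 22.7% lower over the washout. Notch genes, at 25% each way, lay near these shares. Higher and lower shares were 38.1% and 33.3% for retinoic acid genes, 26.9% and 11.5% for Wnt and 20.5% and 33.3% for Hox genes. They were 22.2% and 44.4% for primitive streak and mesoderm genes and 63.6% and 22.7% for hypoxia and glycolysis genes. Retinoic acid genes gave 8 higher and 7 lower of 21, with a median of 0.05, and Stra8, a retinoic acid target of germ cells, fell to 144 and 146 CPM in washout cells, against 754 and 727 CPM in day 4 auxin, while Nr2f1, a nuclear receptor of neural cells, rose to 98.5 and 87.8 CPM, against 12.97 and 13.1 CPM. Wnt effectors and antagonists gave 7 higher and 3 lower of 26, with a median of −0.08, led by the ligand Wnt4 at 14.2 and 10.1 CPM in washout cells, against 1.81 and 2.196 CPM in day 4 auxin. Hox genes gave 8 higher and 13 lower of 39, with a median of −0.26. Hoxb1, which patterns the hindbrain, had 5.84 and 5.76 CPM in washout cells, against 49.7 and 53.6 CPM in day 4 auxin, 20.7 and 22.1 CPM in day 6 auxin and 12.1 and 12.6 CPM in day 6 control (log2 fold change −3.15 ± 0.12, adjusted p = 2.81e-12). Notch pathway genes gave 5 higher and 5 lower of 20, with a median of −0.15, and without day 4 washout replicate 1 the count was 3 higher and 4 lower. Jag1 and Jag2, both Notch ligands, moved apart, with Jag1 at 16.7 and 15.01 CPM in washout cells, against 4.697 and 5.08 CPM in day 4 auxin, and Jag2 at 24.1 and 22.7 CPM, against 58.7 and 61.5 CPM. Primitive streak and mesoderm genes gave 4 higher and 8 lower of 18, with a median of −0.51, and Eomes, a T-box factor of the streak, fell to 14.7 and 15.7 CPM in washout cells, against 51.04 and 51.1 CPM in day 4 auxin. Hypoxia and glycolysis genes rose in 14 of 22 cases and fell in 5, with a median of 0.34, beside 11 and 1 in untreated cells, and Pfkfb3, a regulator of glycolysis, had 50.9 and 52.3 CPM in washout cells, against 9.82 and 10.5 CPM in day 4 auxin. Pgk1, a glycolytic enzyme with many processed pseudogenes, fell to 112 and 123 CPM in washout cells, against 341 and 339 CPM in day 4 auxin, and is one of the 146 genes shifted in the washout libraries.

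Markers of other lineages were present at all stages. Over all genes tested, 22.4% were higher and 22.7% lower over the washout. Higher and lower shares were 34.6% and 30.8% for endoderm genes and 17.6% and 47.1% for endothelial and blood genes. For neural crest and glia genes they were 26.7% and 40%. Endoderm genes gave 9 higher and 8 lower of 26, with a median of 0.19 and a summed level of 3119 and 2855 CPM in washout cells, against 4081 and 3823 CPM in day 4 auxin. Apoa1 and Afp, both secreted by visceral endoderm and liver, rose by 1.8 and 1.5 on the log2 scale, while Sox7 and Gata6, factors of extraembryonic endoderm, fell by 1.03 and 0.44. Endothelial and blood genes gave 3 higher and 8 lower of 17, with a median of −0.27, and Emcn, an endothelial mucin with no count in day 4 auxin, was at least 38.3-fold higher at 0.799 and 1.104 CPM in washout cells, while Hba-x, an embryonic globin with no count in washout cells, was at least 9.65-fold lower. Their sum was 172 and 165 CPM in washout cells, against 229.9 and 235 CPM in day 4 auxin. Neural crest and glia genes gave 4 higher and 6 lower of 15, with a median of −0.30, and 3 lower without day 4 washout replicate 2. Their sum was 516 and 489 CPM in washout cells, against 508 and 494 CPM in day 4 auxin. The part that these cells had in the results was not tested.

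**Figure D5:**
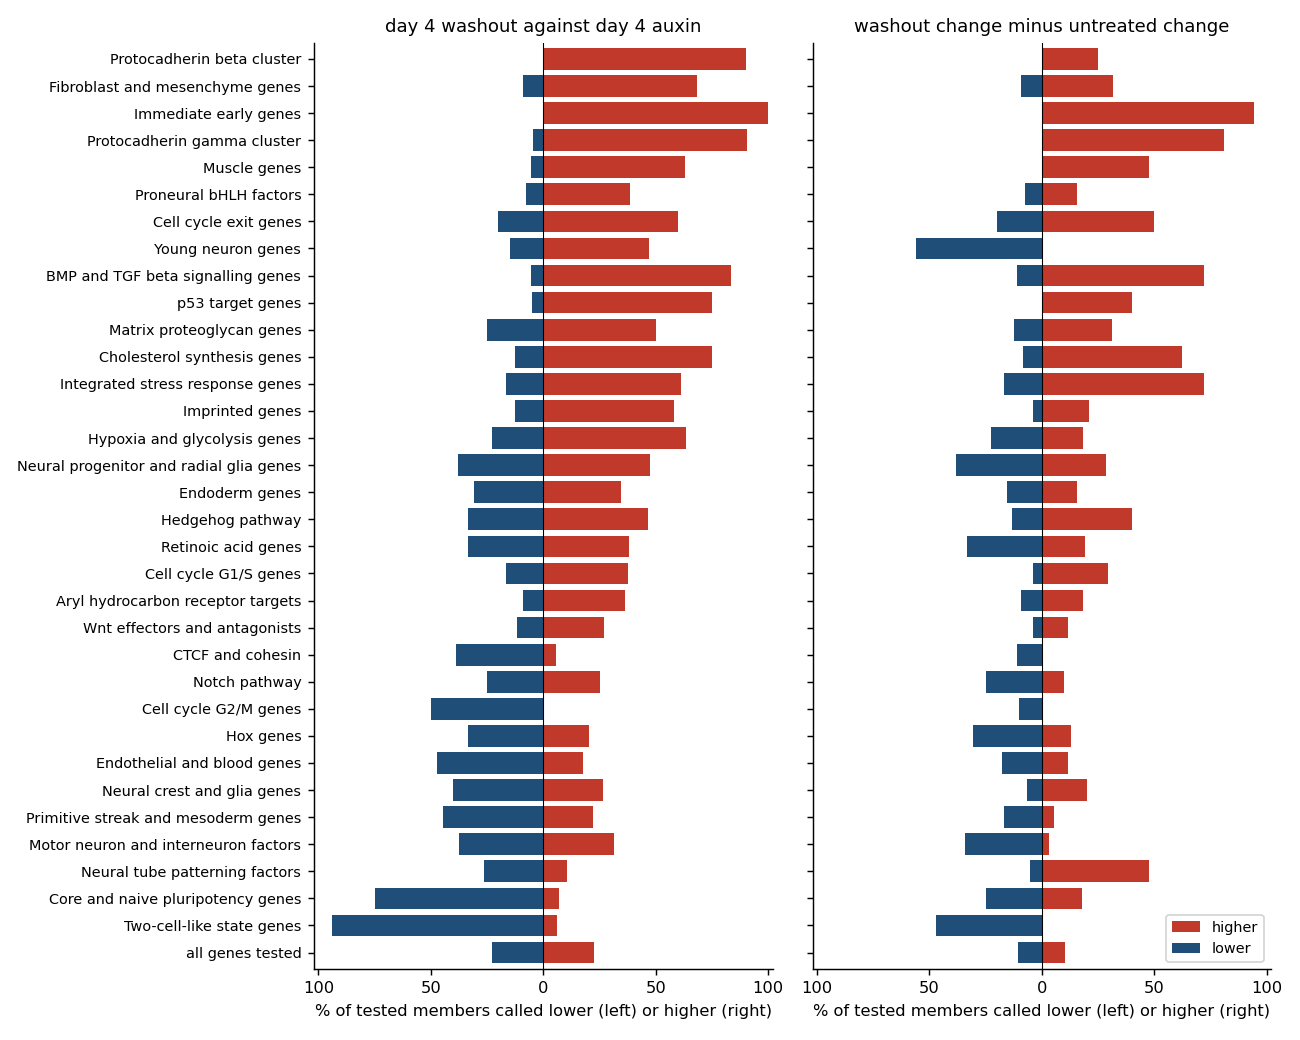
Share of tested members called higher (red, to the right) or lower (blue, to the left) in each gene list, for day 4 washout against day 4 auxin (left panel) and for the washout change minus the untreated change (right panel), ordered by the median change over the washout. Over all genes the shares were 22.4% higher and 22.7% lower in the left panel, and 10.2% and 10.5% in the right panel, while all 18 immediate early genes were higher in the left panel.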

How the data were processed

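RNA was sequenced from CTCF-AID F123 cells, and the authors deposited 1 table of raw read counts per gene for 24 libraries, with no normalization. The submitters' processing notes list HTSeq, edgeR and STAR and give mm10 as build, without versions. The table held 51697 named genes, with 1 unnamed line dropped.

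Groups were taken from the labels. The 16 differentiation libraries were fitted together with edgeR 4.0.16 in R 4.3.3 (TMM scaling, quasi-likelihood F-test, Benjamini-Hochberg adjustment), after filterByExpr at a minimum count of 10 and a total of 15 left 22587 genes. A call is an adjusted p below 0.05, and every adjusted p printed comes from this test. SE stands for the standard error of the log2 fold change. It was calculated back from the test, as the absolute log2 fold change divided by the square root of F. Bounds against a group at 0 use 3 counts over the group and cover counting error only. DESeq2 1.42.0, other scalings and filters, other sets of libraries, counts halved, and leaving out each library were alternatives. Same-numbered libraries did not deviate together (r of −0.0325 to 0.0242 over the group pairs), so the numbers were not used as pairs.

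Named genes were fixed markers, up to 12 genes each way in the main comparison and the difference of changes by size of change (mean log2 CPM of at least 1), up to 6 genes each way for auxin on day 6, and in each of 33 lists the 4 called members with the largest change and the 2 most abundant, some of which are not printed. Pcdhgb4, Bhlhe22, Pou3f2, Myc and some other list members were named after their values were seen. Members and lists were chosen with earlier results of these data known. Gene positions come from GENCODE vM21. Promoter windows come from RefSeq on GRCm38.p6.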

Additional observations from a re-analysis of the deposited data

Results flagged for a closer look

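The change over the washout was tested against the change of untreated cells from day 4 to day 6, and 4694 genes differed. Differences are on the log2 scale, washout change minus untreated change, in edgeR's quasi-likelihood test with Benjamini-Hochberg adjustment. Those furthest above 0 were Fosb at 4.44, Ankrd1 at 3.95, Tagln at 3.73, Atf3 at 3.39, Gli1 at 3.21, Scand1 at 3.15, Edn1 at 3.12, Meltf at 3.12, Pcdhga7 at 3.08, Cdh11 at 3.07, Unc5c at 3.06 and Osr1 at 2.84. Those furthest below 0 were Nefl at −3.79, L1cam at −3.62, Rn7sk at −3.40, Ncan at −3.20, Ret at −3.09, Stmn2 at −2.91, Ndufs5 at −2.80, Cntn2 at −2.80, Vgll2 at −2.70, Sema7a at −2.64, Mir6236 at −2.63 and Ngfr at −2.63. Of these 24 genes, 2 (Ndufs5 and Mir6236) also belong to the 146 that set both day 6 washout libraries apart.

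Day 6 washout libraries enter none of the tested comparisons, although they were among the 16 libraries fitted and define the 146 shifted genes. Their summed immediate early level averaged 1038 CPM, above all 12 differentiation libraries that were not from washout.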

How the results depend on the processing

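With all 24 libraries in the fit, calls fell to 4306 for day 4 washout against day 4 auxin, 537 for the difference of changes, 1656 against day 6 auxin, 1714 against day 6 control, 1241 for untreated cells, 988 for day 6 against day 4 auxin and 1593 for day 6 auxin against day 6 control. At an adjusted p below 0.01, 2780 differences of changes, 5058 and 5074 genes against day 6 auxin and day 6 control, 3860 in untreated cells and 3552 for day 6 against day 4 auxin were called. With a 2-fold minimum the counts in the same order as for 24 libraries were 4165, 1776, 2295, 2224, 1955, 1676 and 2032. Leaving out 1 library gave 8177 to 8274, 3382 to 3733, 5138 to 5792 (lowest without day 6 auxin replicate 2), 5391 to 5782, 3923 to 4188 (lowest without day 4 control replicate 2), 3624 to 3963 and 4677 to 4821 calls. A fit with the replicate number as a block gave 10036 calls over the washout and 4518 for the difference. Over protein-coding genes without the shifted ones, chosen after seeing the data, the counts were 8342 and 4143. No other setting moved these counts by over 1.5 times; the cause was not tested.

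Of 2383 repeats of the named gene results, 2328 kept direction and call, 39 lost the call, 2 gained it and 14 changed sign, none of them called in the main test. Of the 39, 29 were lost with 24 libraries: the changes of Ctgf, Cyp1a1, Cyp1b1, Dlx3, Dppa1, Egr1, Eif1a, Elavl4, Gata6, Hhip, Hmgcs1, Idi1, Ncan, Nefl, Pax6, Pcdhgc3, Pcdhgc4, Rad21, Stmn2 and Wapl, the differences of Ankrd1, Col3a1, Edn1, H19, Pcdhga7, Scand1 and Vgll2, and H19 and Igf2 against day 6 auxin. For Tmem132e the change was −0.0108 with 24 libraries. Without 1 library, it spanned −0.19 to 0.23 for Tmem132e, −0.095 to 0.23 for Cntn2, −0.36 to 0.12 for Pcdhgc5, −0.75 to 0.15 for Rfx4, −0.077 to 0.040 for Actg2 against day 6 auxin, −0.072 to 0.033 for Hapln1 against day 6 control, and −0.23 to 0.15 for Dcx and −0.081 to 0.12 for Isl1 in the difference. With only the compared libraries fitted, Acta2 against day 6 auxin (adjusted p = 0.0325) and Edil3 against day 6 control (adjusted p = 0.0188) were called. With 2 libraries per group, small changes and genes at a few counts are the least certain.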
